A study of Rattus norvegicus with 14 samples.

Results

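The pineal gland and the retina of the rat were compared gene by gene at 6 matched times of day. No gene was selected: the expression values of all transcripts of a gene were summed, which gave 16472 genes, and each pineal library was paired with the retina library of the same hour. The comparison used 12 of the 14 libraries of the series, as 6 pairs, and left out the mixed tissue pools. Every library came from Sprague-Dawley rats aged 6 to 8 weeks that were housed with 14 h of light and 10 h of darkness and that carried no stated genotype or drug treatment. Hours are zeitgeber times (ZT), counted from lights on at ZT0: pools at ZT1, ZT7 and ZT13 were taken in the light, and those of ZT15, ZT19 and ZT23 came from darkness. Each tissue and time was 1 library made from 1 pool of 10 animals, so a single time has no error of its own, and p-values measure the spread of the difference over the times of day. The labels do not say whether both tissues came from the same animals, and they name the samples only as pineal gland and retina.

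The pineal gland makes melatonin at night from tryptophan, under the control of noradrenaline released by sympathetic nerves. Its main cells, the pinealocytes, are related to retinal photoreceptors, and both cell types use genes of the light response. The retina holds rods and cones, which carry separate versions of the same phototransduction proteins, and downstream of them bipolar, horizontal, amacrine and ganglion cells and Muller glia. In bulk tissue, fewer cells of a type and less RNA per cell cannot be told apart.

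The labelled tissues carried their defining transcripts. Tph1, the first enzyme of the melatonin pathway, was the most abundant gene of every pineal library, and Gnat1, the transducin subunit of rods, lay at 2294 FPKM or more in every retina library and at 1.6 or less in every pineal library. FPKM counts the fragments of a transcript relative to its length and to all fragments sequenced, so it is a share, and a very abundant transcript lowers the values of all others. The 12 libraries held 8852 to 9593 genes at 1 FPKM or more. Read counts were not used here. For a 1 kb transcript, a single fragment corresponded to an estimated 0.0216 to 0.0527 FPKM, and values near that level carry large counting error. A value of 0 is given only as listed, because genes that most cells use, such as Gapdh and Hspa8, were also listed near 0.

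The tissues differed at most genes, by modest amounts. In what follows, the difference of a gene is its log2(FPKM + 1) in the pineal gland minus that in the retina, as the mean of the 6 pairs, so that positive values mean more in the pineal gland. Ranges run from the lowest to the highest of the 6 libraries of a tissue, and where 2 ranges are set against each other the pineal gland comes first. Of 10416 genes with at least 1 FPKM in at least 2 libraries, 7785 (74.7%) passed at an adjusted p below 0.05 in limma's paired test: 4169 (40.0%) were higher in the pineal gland and 3616 (34.7%) higher in the retina. The median difference over all tested genes was 0.06 with an SD over genes of 1.21, and 5919 genes (56.8%) stayed within 1 log2 unit at every time. A smaller group differed at least 4-fold, with the same sign in all 6 pairs: 369 genes (3.54%) towards the pineal gland and 561 (5.39%) towards the retina. At 1 FPKM or more in all 6 libraries of 1 tissue and below 1 FPKM in all 6 of the other were 316 genes of the pineal gland and 636 of the retina, while 7898 genes reached 1 FPKM in all 12. Ranges without overlap were common: 2832 tested genes had every pineal library above every retina library, and 2699 had the reverse. The all-gene median moved to -0.01 with median ratio scaling, and the calls then split into 3873 higher in the pineal gland and 3992 higher in the retina.

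**Figure D1:**
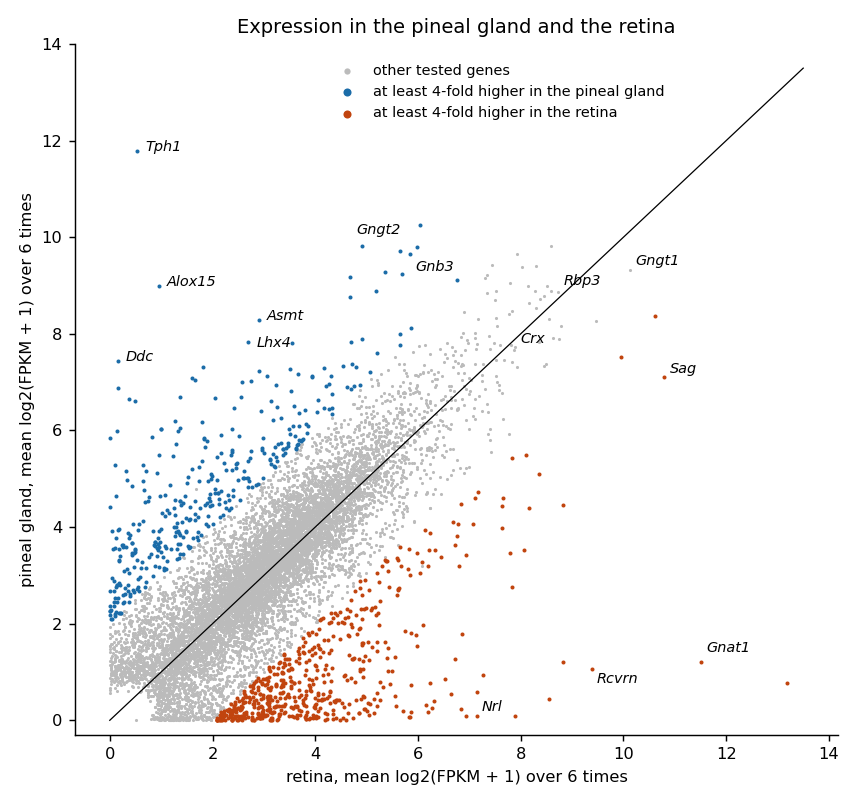
Each point is 1 of 10416 tested genes, with its mean log2(FPKM + 1) over the 6 retina libraries on the horizontal axis and over the 6 pineal libraries on the vertical axis; the line marks equal levels, and colours mark the 369 and 561 genes that differed at least 4-fold with the same sign in all pairs. Tph1, Alox15 and Ddc lie far above the line, Nrl, Gnat1 and Rcvrn far below it, and Crx, Rbp3 and Gngt1 close to it.

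The melatonin pathway stood highest in the pineal gland. All 4 enzymes of the route from tryptophan to melatonin were higher there, each by at least 4-fold in all pairs, with a median difference of 6.33 against 0.06 over all tested genes. Tph1 (gene ID 24848, rn4 chromosome 1, 97186071 to 97207551), which adds the hydroxyl group to tryptophan, lay between 2968 and 3848 FPKM in the pineal gland (median 3704) and between 0.359 and 0.522 in the retina (median 0.449). The groups were far apart, and its difference of 11.25 (SE 0.08, adjusted p = 2.57e-12) was the largest towards the pineal gland. Ddc, the decarboxylase that turns 5-hydroxytryptophan into serotonin, lay between 129.6 and 217 FPKM in the pineal gland (median 172) and between 0.0651 and 0.235 in the retina (median 0.112). The pairs differed by 7.28 (SE 0.10, adjusted p = 8.8e-11). Asmt (gene ID 246281, rn4 chromosome 12, 16811892 to 16817186), the last enzyme, lay between 237 and 444 FPKM in the pineal gland (median 287) and between 4.61 and 8.61 in the retina (median 6.57). Its level in the retina was above 1 FPKM in every library, and the difference was 5.38 (SE 0.11, adjusted p = 6.1e-10). Aanat (gene ID 25120, rn4 chromosome 10, 106709371 to 106713683), the enzyme before Asmt, followed the hour in both tissues: it stood at 7.05, 6.35 and 5.13 FPKM in the pineal gland at ZT7, ZT13 and ZT15 and at 650.3, 857 and 396 at ZT19, ZT23 and ZT1. In the retina it stood at 0.147, 0.0831 and 0.249 FPKM and at 4.17, 2.47 and 1.23 FPKM at the same hours. The pineal library was the higher of each pair, and the difference ran from 2.30 to 7.95 (mean 5.05, SE 0.82, adjusted p = 0.000372).

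Genes that serve this pathway differed member by member. Of the 5 genes of tetrahydrobiopterin supply, the cofactor of Tph1, 4 were higher in the pineal gland (median 1.13), against 40.0% of all tested genes. Gch1, the entry enzyme, lay between 66.3 and 132 FPKM in the pineal gland (median 107) and between 0.0968 and 0.658 in the retina (median 0.242). This gave a difference of 6.28 (SE 0.13, adjusted p = 4.95e-10). Pcbd1, which recycles the cofactor, lay at 75.7 to 115 FPKM against 3.27 to 6.03 (4.14, SE 0.13, adjusted p = 5.77e-09), and the later synthesis enzyme Pts (1.13, adjusted p = 3.89e-05) and the reductase Qdpr (0.95, adjusted p = 2.28e-05) followed at a distance. Spr, the last synthesis enzyme, did not pass (0.36, adjusted p = 0.0652; 0.0362 without the ZT7 pair). Among 4 tested genes of monoamine storage and breakdown, Maob was higher in the pineal gland (11.5 to 25.3 FPKM against 0.989 to 2.2, difference 3.15, SE 0.14, adjusted p = 4.96e-08), whereas the sister oxidase Maoa (-0.96, SE 0.10, adjusted p = 2.44e-05) and the vesicular transporter Slc18a1 (-0.48, SE 0.086, adjusted p = 0.000711) were higher in the retina. Slc18a2, the other vesicular transporter, did not pass (-0.22, adjusted p = 0.154; 0.0336 without the ZT13 pair).

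Phototransduction genes split by photoreceptor type. All 11 tested rod genes were higher in the retina (median -3.70), while 6 of 9 cone genes were higher in the pineal gland (median 1.32), against 34.7% and 40.0% of all tested genes. Gnat1 (gene ID 363143, rn4 chromosome 8, 112925418 to 112930154), the rod transducin alpha subunit, lay between 0.944 and 1.6 FPKM in the pineal gland (median 1.39) and between 2294 and 3753 in the retina (median 3019). No pineal library came near a retina library, and the difference of -10.30 (SE 0.10, adjusted p = 9.81e-12) was among the 15 largest towards the retina. The rod phosphodiesterase subunits Pde6a and Pde6b showed the same pattern, with medians of 1.32 FPKM against 456 for Pde6a (-7.62, SE 0.067, adjusted p = 8.18e-12) and 0.304 FPKM against 379 for Pde6b (-8.11, SE 0.083, adjusted p = 1.12e-11).

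The cone versions of the same proteins lay the other way. Gnat2 (gene ID 365901, rn4 chromosome 2, 203652354 to 203661377), the cone transducin alpha subunit, lay between 377 and 573 FPKM in the pineal gland (median 485) and between 28.8 and 39.9 in the retina (median 36.4). The mean difference was 3.70 (SE 0.10, adjusted p = 2.23e-09). Its partners Gnb3 (beta) and Gngt2 (gamma) were among the 10 most abundant genes of the pineal gland: Gnb3 lay between 689 and 910.2 FPKM in the pineal gland (median 827) and between 54.6 and 63.0 in the retina (median 55.2) and Gngt2 between 765 and 1068 FPKM in the pineal gland (median 891) and between 23.7 and 33.1 in the retina (median 29.2). The differences were 3.81 (SE 0.094, adjusted p = 1.34e-09) and 4.91 (SE 0.082, adjusted p = 2.31e-10). No pineal library overlapped a retina library in any of the 3 genes, as for 2832 of the 10416 tested genes in this direction. Pde6c, the catalytic subunit of the cone phosphodiesterase, lay between 118 and 209.9 FPKM in the pineal gland (median 145) and between 5.3 and 7.82 in the retina (median 6.62). On average the pairs differed by 4.32 (SE 0.09, adjusted p = 5.84e-10). Slc24a2, the cone ion exchanger, was higher in the pineal gland as well (1.32, SE 0.14, adjusted p = 2.03e-05). Opn1sw encodes the short-wavelength cone opsin and lay at 10.2 to 44.8 FPKM against 7.1 to 13.4, with overlapping groups, and was higher in the pineal gland in 5 of 6 pairs (1.03, SE 0.29, adjusted p = 0.00942).

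The cone set was not complete in the pineal gland. Opn1mw, the middle-wavelength opsin, lay between 0 and 0.114 FPKM in the pineal gland (median 0.0184) and between 10.6 and 20.7 in the retina (median 15.6). The difference came to -3.96 (SE 0.12, adjusted p = 5.07e-09). Pde6h, the inhibitory subunit of the cone phosphodiesterase, was also higher in the retina (0.258 to 0.739 FPKM against 15.6 to 22.9, difference -3.68, SE 0.079, adjusted p = 6.45e-10), as was the cone arrestin Arr3 (4.16 to 8.05 FPKM against 11.4 to 27.9, difference -1.32, SE 0.086, adjusted p = 7.18e-07). Cnga3, a cone channel subunit, stayed at 1.14 FPKM or less in every library and was not tested. On the rod side, 3 genes lay within 1 log2 unit of equal on average: the rod transducin gamma gene Gngt1 (429.5 to 1040.2 FPKM against 715 to 1620.4, difference -0.81, SE 0.15, adjusted p = 0.00076), the photoreceptor kinase Grk1 (69.9 to 105 FPKM against 120.1 to 149, -0.63, SE 0.10, adjusted p = 0.000386) and the channel subunit Cngb1 (49.9 to 69.8 FPKM against 84.7 to 109.8, -0.58, SE 0.11, adjusted p = 0.000944). Gngt1 stood beside Gngt2 in the pineal gland (medians 659.8 and 891 FPKM) and far above it in the retina (1205 and 29.2). Between these poles lay the channel subunit Cnga1 (-4.33, SE 0.20, adjusted p = 7.86e-08), the arrestin Sag (-3.70, SE 0.37, adjusted p = 1.52e-05), the beta subunit Gnb1 (-3.00, SE 0.13, adjusted p = 4.18e-08) and the exchanger Slc24a1 (-2.40, SE 0.086, adjusted p = 1.21e-08).

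Feedback and shut-off genes were lower in the pineal gland for 9 of 10 (median -1.74), against 34.7% of all tested genes, but the sizes ranged widely. Rcvrn, the calcium sensor recoverin, lay between 0.555 and 1.64 FPKM in the pineal gland (median 1.2) and between 517 and 835 in the retina (median 687). Its mean difference over the pairs was -8.32 (SE 0.16, adjusted p = 4.29e-10). Of the guanylate cyclases that remake cGMP, Gucy2f lay at 0 to 0.0969 FPKM against 12.8 to 15.5 (-3.90, SE 0.073, adjusted p = 3.81e-10) and Gucy2e at 6.85 to 21.4 FPKM against 33.1 to 62.8 (-1.47, SE 0.18, adjusted p = 4.94e-05). Their calcium-sensing activators Guca1a (-1.45, SE 0.17, adjusted p = 3.66e-05) and Guca1b (-0.86, SE 0.11, adjusted p = 9.35e-05) differed less. Rgs9, which shuts off transducin, did not pass (47.4 to 62.1 FPKM against 50.7 to 65.3; -0.11, adjusted p = 0.137), while its binding partners Gnb5 (-2.72, SE 0.081, adjusted p = 3.57e-09) and Rgs9bp (-2.02, SE 0.26, adjusted p = 7.59e-05) were higher in the retina. With quantile normalization Rgs9 passed (adjusted p = 7.13e-05).

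**Figure D2:**
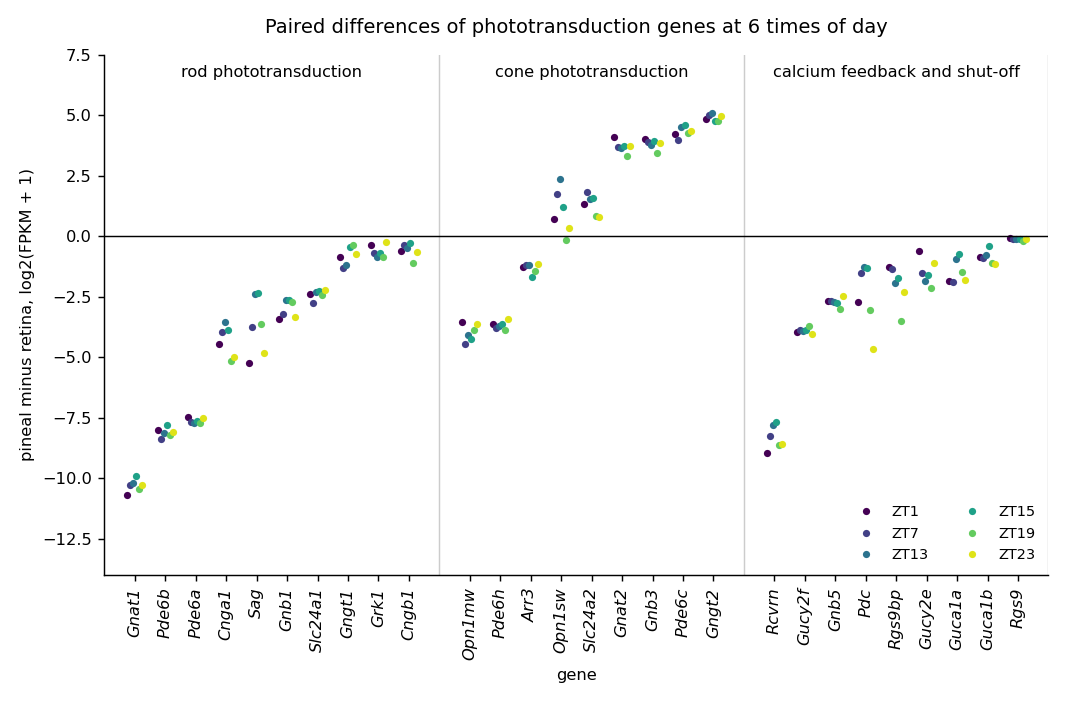
Each column is 1 phototransduction gene named in the text and each point its pineal minus retina difference in log2(FPKM + 1) at 1 of 6 times of day, coloured by time; the line marks equal levels. All points of the 10 rod genes shown lie below 0, those of Gnat2, Gnb3, Pde6c and Gngt2 lie above 3, and Pdc and Sag spread most over the day.

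Promoter sequences were set beside this split for 4 genes, 2 of melatonin synthesis and 2 of phototransduction, as the 250 bases before the transcript start in RefSeq's GRCr8 assembly (a later build than the rn4 of the expression table). Capitals mark TAATCC, the core bound by Crx and Otx factors, TGACGTCA, the cAMP response element, with its shorter form TGACG, and CACGTG, the E-box of clock factors, on either strand; TGACG lies within TGACGTCA. The Aanat window (chr10:102326073-102326322, plus strand) holds TAATCC on the reverse strand 106 bases before the start and TGACG 200 bases before it. The Asmt window (chr12:21423337-21423586, minus strand) holds TGACGTCA 243 bases before the start and TGACG on the reverse strand 100 bases before it. The Opn1sw window (chr4:58945826-58946075, minus strand) holds TAATCC 106 bases before the start, and the Gngt1 window (chr4:32960695-32960944, plus strand) holds it on the reverse strand 220 bases before the start.
Aanat: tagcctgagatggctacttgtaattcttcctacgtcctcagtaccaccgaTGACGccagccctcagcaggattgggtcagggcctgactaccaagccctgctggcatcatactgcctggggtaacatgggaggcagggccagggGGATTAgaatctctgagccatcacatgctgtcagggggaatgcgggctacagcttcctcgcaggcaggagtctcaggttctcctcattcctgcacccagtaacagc
Asmt: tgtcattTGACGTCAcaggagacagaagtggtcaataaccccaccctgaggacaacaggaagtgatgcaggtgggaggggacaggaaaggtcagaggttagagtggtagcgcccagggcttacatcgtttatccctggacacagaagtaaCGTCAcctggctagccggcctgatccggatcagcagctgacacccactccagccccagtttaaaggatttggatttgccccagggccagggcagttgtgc
Opn1sw: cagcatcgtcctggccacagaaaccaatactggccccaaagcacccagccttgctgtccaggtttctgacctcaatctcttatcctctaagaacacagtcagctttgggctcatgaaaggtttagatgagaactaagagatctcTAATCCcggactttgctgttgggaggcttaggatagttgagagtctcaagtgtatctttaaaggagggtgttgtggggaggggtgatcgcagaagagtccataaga
Gngt1: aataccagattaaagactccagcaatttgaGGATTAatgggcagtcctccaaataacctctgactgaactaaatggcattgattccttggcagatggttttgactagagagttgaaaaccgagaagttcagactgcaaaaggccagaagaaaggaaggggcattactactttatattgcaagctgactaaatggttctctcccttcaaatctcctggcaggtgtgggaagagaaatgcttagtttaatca

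The share of promoters that hold each motif was counted in groups of genes, with no test. RefSeq windows were matched for 8494 of the 10416 tested genes, and TAATCC was present in 4.98% of them, against 5.99% of 284 matched genes at least 4-fold higher in the pineal gland and 5.87% of 409 at least 4-fold higher in the retina. TGACGTCA was present in 3.1%, 3.87% and 3.18% of the same groups, TGACG in 28.5%, 21.5% and 20.3%, and CACGTG in 8.29%, 5.28% and 6.11%. A match describes the letters only.

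Genes that build the outer segment, the membrane stack that holds the opsins, were mostly retinal. Of 14 tested, 11 were higher in the retina and 1 in the pineal gland (median -1.82), against 34.7% and 40.0% of all tested genes. Rp1, an axoneme protein of the outer segment, lay between 0.0244 and 0.119 FPKM in the pineal gland (median 0.0682) and between 216 and 252 in the retina (median 239). Over the 6 pairs the difference was -7.80 (SE 0.071, adjusted p = 8.18e-12), and Abca4, a retinoid transporter of the discs, lay at 0.178 to 1.16 FPKM against 92.4 to 107 (-6.10, SE 0.13, adjusted p = 6.1e-10). The disc rim genes Prph2 and Rom1 were abundant in both tissues: Prph2 lay between 253 and 398 FPKM in the pineal gland (median 354) and between 1256 and 2069.6 in the retina (median 1547). The paired difference was -2.24 (SE 0.10, adjusted p = 4.48e-08), and Rom1 differed by -1.21 (SE 0.15, adjusted p = 6.18e-05). Impg1, a matrix proteoglycan between photoreceptors, was the gene higher in the pineal gland (102 to 127 FPKM against 56.9 to 71.8, difference 0.83, SE 0.081, adjusted p = 1.19e-05). Crb1, a polarity protein, lay at 24.8 to 38.1 FPKM against 24.4 to 37.5 and did not pass (0.00, adjusted p = 0.992; 0.00874 with quantile normalization).

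In the visual cycle, which renews the opsin chromophore, 10 of 12 genes were higher in the retina (median -1.36), against 34.7% of all tested genes. The exception in direction was Rbp4, the retinol carrier of plasma (8.79 to 19.5 FPKM against 1.68 to 2.37, difference 2.16, SE 0.12, adjusted p = 2.07e-07). Rbp3, the retinoid carrier of the space around photoreceptors, was among the most abundant genes of both tissues, between 364 and 603 FPKM in the pineal gland (median 465) and between 404 and 462 in the retina (median 413), and did not pass (0.14, adjusted p = 0.347, 3 pairs each way). With quantile normalization Rbp3 was called higher in the retina (-0.47, adjusted p = 0.00822). The isomerase Rpe65, a pigment epithelium gene, stood at 0 to 0.0793 FPKM against 5.13 to 11.9 (-2.93, SE 0.14, adjusted p = 9.45e-08), and the glial carrier Rlbp1 at 9.38 to 11.5 FPKM against 72.4 to 90.2 (-2.82, SE 0.07, adjusted p = 1.34e-09).

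Transcription factors of the shared lineage included genes even across the tissues and genes that were nearly absent from 1 of them. Of 25 tested, 7 were higher in the pineal gland, 13 were higher in the retina and 5 did not pass, with 40.0% and 34.7% of all tested genes higher in these tissues. Crx and Otx2, which switch on photoreceptor genes, were abundant in both: Crx lay between 159.7 and 275 FPKM in the pineal gland (median 200.2) and between 208 and 270.0 in the retina (median 236) and Otx2 at 109.9 to 212 FPKM against 112 to 122. Neither passed (-0.17, adjusted p = 0.154, and 0.29, adjusted p = 0.0583), nor did Pax4 (-0.11, adjusted p = 0.546). Crx was called higher in the retina with median ratio scaling (-0.25, adjusted p = 0.0381) and quantile normalization (0.000723), and Otx2 higher in the pineal gland without the ZT23 pair (0.0246). On the pineal side stood Lhx4, a LIM homeobox factor, between 178 and 328 FPKM in the pineal gland (median 211) and between 4.75 and 6.23 in the retina (median 5.62). Across the pairs it differed by 5.13 (SE 0.10, adjusted p = 4.59e-10), and the retinoid receptor Rxrg lay at 46.5 to 87.9 FPKM against 1.3 to 1.72 (4.68, SE 0.11, adjusted p = 1.25e-09). Bsx, a brain homeobox factor, lay between 32.7 and 196 FPKM in the pineal gland (median 37.1) and was listed at 0 in all 6 retina libraries. Neurod4, a neuronal basic helix-loop-helix factor, was higher as well (89.6 to 226 FPKM against 45.3 to 58.3, 1.73, SE 0.19, adjusted p = 2.3e-05).

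On the retinal side stood factors of rods and of the eye field. Nrl, the factor that sets rod fate, lay between 0 and 0.208 FPKM in the pineal gland (median 0.0485) and between 115 and 162 in the retina (median 149). Its difference was -7.05 (SE 0.094, adjusted p = 7.58e-11). Esrrb, a nuclear receptor of rods, lay at 0 to 0.139 FPKM against 39.6 to 80.2 (-5.78, SE 0.15, adjusted p = 1.5e-09). The eye field factors Six3 (-4.20, adjusted p = 1.89e-10), Pax6 (-2.67, adjusted p = 1.9e-08) and Rax (-1.66, adjusted p = 1.62e-05) were higher in the retina, and Six6 was listed at 0 in all pineal libraries. Isl1 and Isl2, a pair of LIM homeobox factors, lay in opposite directions: Isl1 at 0.0264 to 0.388 FPKM against 13.8 to 17.5 (-3.87, SE 0.087, adjusted p = 8.64e-10) and Isl2 at 21.3 to 71.2 FPKM against 0.714 to 1.33 (4.52, SE 0.21, adjusted p = 7.01e-08). Prdm1 (-3.20, SE 0.087, adjusted p = 2.33e-09) and the thyroid hormone receptor Thrb (-1.41, SE 0.27, adjusted p = 0.001), regulators of photoreceptor fate and cone opsin choice, were higher in the retina.

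Photoreceptors and pinealocytes both hold synaptic ribbons, and genes of the ribbon synapse differed in both directions. Of 16 tested, 5 were higher in the pineal gland and 10 higher in the retina (median -0.68), against 40.0% and 34.7% of all tested genes. Slc17a7, the vesicular glutamate transporter of photoreceptors, lay between 329.9 and 456 FPKM in the pineal gland (median 407) and between 262 and 325 in the retina (median 281). The pairs differed by 0.47 (SE 0.10, adjusted p = 0.00144), a call that quantile normalization removed (adjusted p = 0.521). Cplx3, a complexin of ribbon synapses, was higher in the pineal gland (145 to 226 FPKM against 52.5 to 65.3, difference 1.73, SE 0.11, adjusted p = 6.05e-07), and its relative Cplx4 in the retina (103 to 142 FPKM against 135 to 235, -0.73, SE 0.14, adjusted p = 0.0012). The calcium sensor Cabp4, which tunes the photoreceptor calcium channel, was higher in the retina (11.8 to 45.1 FPKM against 127 to 167, -2.44, SE 0.23, adjusted p = 9.51e-06), while the channel's alpha subunit Cacna1f differed by 0.30 with an adjusted p of 0.0483, which was 0.148, 0.0743 and 0.139 without the ZT1, ZT7 or ZT23 pair. The vesicle fusion gene Snap25 was higher in the pineal gland (570.3 to 782 FPKM against 240.2 to 289, 1.35, SE 0.10, adjusted p = 2.1e-06).

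Markers of inner retinal cells were retinal for the most part. The counts higher in the retina were 7 of 11 for bipolar cells (median -2.38), 14 of 15 for amacrine and horizontal cells (-2.57), 10 of 12 for ganglion cells (-1.89) and 6 of 9 for Muller glia and astrocytes (-1.68). The share over all tested genes was 34.7%. Grm6, the glutamate receptor of ON bipolar cells, lay between 0.0813 and 0.807 FPKM in the pineal gland (median 0.345) and between 15.8 and 18.8 in the retina (median 16.9). This gave a difference of -3.72 (SE 0.11, adjusted p = 4.19e-09). Calb2, a calcium buffer of amacrine and ganglion cells, lay between 0.344 and 1.61 FPKM in the pineal gland (median 0.998) and between 142 and 182 in the retina (median 147). The mean difference was -6.33 (SE 0.12, adjusted p = 4.29e-10). No pineal library of either gene came near the lowest retina library. Gad1, the enzyme that makes GABA, lay at 0.0187 to 0.489 FPKM against 51.9 to 61.7 (-5.68, SE 0.10, adjusted p = 2.57e-10). The ganglion cell genes Sncg (-5.68, SE 0.12, adjusted p = 6.1e-10) and Nefl (-5.52, SE 0.078, adjusted p = 1.06e-10), a synuclein and a neurofilament, and the Muller glia gene Dkk3 (-5.06, SE 0.10, adjusted p = 4.29e-10) followed the same direction.

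Several genes of these lists were higher in the pineal gland. They were Cabp5 (24.2 to 49.4 FPKM against 8.94 to 14.7, difference 1.56, SE 0.11, adjusted p = 1.61e-06), a calcium binding protein, and Nyx (8.8 to 20.7 FPKM against 3.66 to 5.44, 1.46, SE 0.14, adjusted p = 1.08e-05), which organises the bipolar cell synapse. Gng13, a G protein gamma subunit (0.97, SE 0.17, adjusted p = 0.000724), Slc17a6, the second vesicular glutamate transporter (21.5 to 123 FPKM against 11.6 to 13.9, 1.77, SE 0.34, adjusted p = 0.0012), and Isl2 also lay on that side, as did S100b, a calcium binding protein of glia (17.7 to 30.1 FPKM against 14.9 to 21.1, 0.30, SE 0.08, adjusted p = 0.00679; adjusted p = 0.0859 with quantile normalization). Prkca, an enzyme used to stain rod bipolar cells, did not pass (-0.19, adjusted p = 0.179; 0.0364 without the ZT19 pair), nor did the calcium buffer Calb1 (0.14, 0.301).

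Receptors for fast transmitters were retinal with few exceptions. Of 26 tested glutamate, GABA and glycine receptor genes, 24 were higher in the retina and 16 of these by at least 4-fold in all pairs (median -2.49). Over all tested genes 34.7% were higher in the retina, 5.39% by at least 4-fold in all pairs, and 40.0% were higher in the pineal gland. Grik1, a kainate receptor subunit, lay between 0.0119 and 0.103 FPKM in the pineal gland (median 0.067) and between 13 and 17.3 in the retina (median 15.1). On average the pairs differed by -3.92 (SE 0.075, adjusted p = 3.99e-10), and Grin1, the core NMDA receptor subunit, lay at 0.0599 to 0.502 FPKM against 13.4 to 16.8 (-3.67, SE 0.094, adjusted p = 1.61e-09). The glycine receptor gene Glra3 was listed at 0 in all pineal libraries and lay at 6.43 to 9.0 FPKM in the retina. The metabotropic glutamate receptor Grm3 was higher in the pineal gland (0.33, SE 0.094, adjusted p = 0.0106). Of 9 tested nicotinic acetylcholine receptor subunits, 2 were pineal, Chrna3 and Chrnb4, which pair in autonomic ganglia, and 5 retinal: Chrna6, Chrnb3, Chrna2 (-2.17, SE 0.068, adjusted p = 4.98e-09), Chrna4 (-2.93, SE 0.075, adjusted p = 1.55e-09) and Chrna7 (-1.10, SE 0.074, adjusted p = 8.79e-07). Chrnb4 lay between 105 and 213 FPKM in the pineal gland (median 173) and between 2.01 and 2.75 in the retina (median 2.58). The difference came to 5.50 (SE 0.13, adjusted p = 1.11e-09), and Chrna3 lay at 26.3 to 58.1 FPKM against 1.76 to 3.32 (3.51, SE 0.19, adjusted p = 2.19e-07). Chrnb3 lay at 0.126 to 0.629 FPKM against 14.4 to 16.4 (-3.68, SE 0.10, adjusted p = 1.93e-09), and Chrna6 was listed at 0 in all pineal libraries and lay between 19.9 and 23.8 FPKM in the retina.

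Receptors for noradrenaline and dopamine lay on opposite sides. Adrb1, the beta-adrenergic receptor that raises cAMP, lay between 32.6 and 50.1 FPKM in the pineal gland (median 37.8) and between 2.51 and 5.82 in the retina (median 3.46). Its mean difference over the pairs was 3.09 (SE 0.15, adjusted p = 8.31e-08). Adra1b, an alpha-adrenergic receptor, lay between 19.3 and 65.1 FPKM in the pineal gland (median 31.7) and between 0.788 and 3.8 in the retina (median 1.89). Over the 6 pairs the difference was 3.52 (SE 0.10, adjusted p = 2.37e-09). The lowest pineal library lay above the highest retina library for both genes, as for 2832 of the 10416 tested genes. All 4 tested dopamine receptor genes were higher in the retina: Drd2 at 0.025 to 0.123 FPKM against 11.5 to 14.5 (-3.73, SE 0.068, adjusted p = 3.68e-10), Drd1a (-2.75, adjusted p = 1.64e-06), Drd5, listed at 0 in all pineal libraries, and Drd4. Drd4 lay between 0.879 and 55.8 FPKM in the pineal gland and 18.3 and 65.2 in the retina, overlapping over the day (-1.74, SE 0.45, adjusted p = 0.00632, retina higher in 5 of 6 pairs), and without pairing its adjusted p was 0.0679. The melatonin receptors Mtnr1a and Mtnr1b stayed at or below 0.116 FPKM in all 12 libraries and were not tested. Across the 21 tested genes of adrenergic and cAMP signalling 9 were higher in the pineal gland and 7 higher in the retina, shares close to the 40.0% and 34.7% of all tested genes. Their median of 0.15 turned to -0.17 with no filter on low values. Of the adenylyl cyclases, which make cAMP, Adcy2 was pineal (20.7 to 69.0 FPKM against 10.1 to 12.6, 1.89, SE 0.25, adjusted p = 8.53e-05) and Adcy3 (-1.22, adjusted p = 1.39e-06), Adcy5 (-0.84, adjusted p = 1.3e-05), Adcy6 (-0.73, adjusted p = 4.61e-05) and Adcy1 (-1.22, adjusted p = 0.00857) were retinal. Prkar2b, a regulatory subunit of the cAMP-dependent kinase, was higher in the pineal gland (14.7 to 41.5 FPKM against 5.16 to 7.09, 2.07, SE 0.18, adjusted p = 5.95e-06).

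Slco1c1 and Dio1, of thyroid hormone handling, were retinal, and granule genes divided between the tissues. Slco1c1, a thyroid hormone carrier, was higher in the retina (0.38 to 1.33 FPKM against 3.52 to 6.79, -1.64, SE 0.13, adjusted p = 3.4e-06). Dio1, a deiodinase, lay at 0 to 0.0395 FPKM against 6.27 to 10.2 (-3.10, SE 0.092, adjusted p = 3.54e-09). Of 11 genes of granules and peptide processing, 3 were higher in the pineal gland and 6 higher in the retina, against 40.0% and 34.7% of all tested genes. The median was -0.27, and -0.66 with quantile normalization. Chga, the granule protein chromogranin A, lay between 466 and 758 FPKM in the pineal gland (median 581) and between 20.1 and 28.4 in the retina (median 24.9). The paired difference was 4.51 (SE 0.11, adjusted p = 1.13e-09), and the granule proteins Chgb (1.98, SE 0.09, adjusted p = 6.14e-08) and Scg3 (1.72, SE 0.11, adjusted p = 5.53e-07) were also higher in the pineal gland. Vgf (-2.66, SE 0.28, adjusted p = 2.18e-05) and Scg5 (-0.27, SE 0.078, adjusted p = 0.01; adjusted p = 0.0809 without the ZT1 and ZT19 pairs), other granule proteins, were higher in the retina. The enzymes that cut and finish peptides were higher in the retina: the convertases Pcsk1 (-2.47, SE 0.10, adjusted p = 3.33e-08) and Pcsk2 (-3.10, SE 0.11, adjusted p = 8.84e-09), the carboxypeptidase Cpe (-1.41, SE 0.11, adjusted p = 2e-06) and the amidating enzyme Pam (-1.23, SE 0.11, adjusted p = 8.43e-06). Ptprn, a membrane protein of dense-core granules and 1 of the 10 most abundant pineal genes, lay between 644 and 1078 FPKM in the pineal gland (median 874) and between 29.6 and 81.0 in the retina (median 48.7). Across the pairs it differed by 4.06 (SE 0.13, adjusted p = 6.18e-09).

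Clock genes were modestly higher in the retina for the most part. Of 17, 9 were higher in the retina and 2 in the pineal gland (median -0.53), against 34.7% and 40.0% of all tested genes. Arntl, the activator, lay between 2.54 and 12.5 FPKM in the pineal gland (median 5.98) and between 24.5 and 32.1 in the retina (median 28.7). Its difference was -2.14 (SE 0.24, adjusted p = 2.82e-05). Npas2, which can stand in for its partner Clock, lay between 7.94 and 16.6 FPKM in the pineal gland (median 9.78) and between 0.965 and 1.38 in the retina (median 1.12). The pairs differed by 2.47 (SE 0.15, adjusted p = 3.87e-07), while Clock itself did not pass (0.16, adjusted p = 0.0925). The repressor Cry1 was higher in the retina (2.54 to 4.13 FPKM against 7.21 to 10.0, -1.21, SE 0.13, adjusted p = 2.73e-05). Calls for Per1 (-0.86) and Per3 (-0.46) were lost without the ZT1, ZT7 or ZT13 pair (adjusted p 0.0544 to 0.0646 and 0.0534 to 0.0631).

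Energy metabolism split between glycolysis and the mitochondrion. Of 19 glycolysis genes 13 were higher in the retina and 3 in the pineal gland (median -0.54), and of 18 citric acid cycle genes 15 were higher in the pineal gland and 0 higher in the retina (median 0.65), against 40.0% and 34.7% of all tested genes. Hk2, the hexokinase that commits glucose, lay between 8.49 and 29.5 FPKM in the pineal gland (median 15.4) and between 81.0 and 121 in the retina (median 103). This gave a difference of -2.56 (SE 0.20, adjusted p = 2.26e-06). Pfkp, an isoform of phosphofructokinase, lay between 1.54 and 3.69 FPKM in the pineal gland (median 2.5) and between 49.1 and 75.4 in the retina (median 65.0). The mean difference was -4.19 (SE 0.17, adjusted p = 2.48e-08), whereas Pfkm, another isoform, was higher in the pineal gland (0.39, SE 0.08, adjusted p = 0.00171; adjusted p = 0.159 with quantile normalization). For Hk2 and Pfkp every retina library lay above every pineal library, as for 2699 of the 10416 tested genes. Aldoc, an aldolase, lay at 27.7 to 36.7 FPKM against 293 to 378 (-3.26, SE 0.10, adjusted p = 5.78e-09). The lactate carriers Slc16a1 (-2.52, SE 0.15, adjusted p = 3.04e-07) and Slc16a3 (-3.39, SE 0.12, adjusted p = 9.75e-09) and the glucose carrier Slc2a3 (-2.85, SE 0.078, adjusted p = 2.37e-09) were higher in the retina. In the cycle, Ogdh, the oxoglutarate dehydrogenase, lay between 118 and 155 FPKM in the pineal gland (median 126) and between 33.3 and 40.3 in the retina (median 34.9). On average the pairs differed by 1.85 (SE 0.093, adjusted p = 1.15e-07), and the succinate dehydrogenase genes Sdha (0.66), Sdhb (0.91), Sdhc (0.88) and Sdhd (0.93) were each higher in the pineal gland in all 6 pairs, with adjusted p between 1.45e-06 and 3.31e-05. With quantile normalization the median of the cycle genes fell from 0.65 to 0.33 and that of the glycolysis genes moved to -0.90.

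Sterol synthesis genes were higher in the retina for 14 of 19 (median -1.0), against 34.7% of all tested genes. Hmgcs1, an early enzyme of the pathway, lay between 7.86 and 11.9 FPKM in the pineal gland (median 9.22) and between 30.1 and 37.7 in the retina (median 31.8). The difference came to -1.66 (SE 0.10, adjusted p = 3.38e-07), and the pathway's activator Srebf2 lay at 8.01 to 10.2 FPKM against 23.9 to 27.4 (-1.49, SE 0.066, adjusted p = 4.86e-08). Members on the other side were Tm7sf2, a sterol reductase (34.7 to 59.6 FPKM against 3.23 to 3.78, 3.37, SE 0.11, adjusted p = 5.14e-09), the phosphomevalonate kinase Pmvk (29.3 to 49.3 FPKM against 6.9 to 8.86, 2.17, SE 0.12, adjusted p = 1.8e-07) and the isomerase Ebp (0.56, SE 0.10, adjusted p = 0.000881).

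Antigen presentation and interferon genes were higher in the pineal gland almost throughout. Of 22 tested, 21 were higher there, 9 of them by at least 4-fold in all pairs, and none in the retina (median 1.3). Over all tested genes 40.0% were higher in the pineal gland, 3.54% by at least 4-fold in all pairs. B2m, the light chain of class I molecules, lay between 202 and 255 FPKM in the pineal gland (median 223) and between 19.5 and 32.6 in the retina (median 23.8). Its mean difference over the pairs was 3.14 (SE 0.11, adjusted p = 8.06e-09). Cd74, the invariant chain of class II molecules, lay between 21.7 and 41.4 FPKM in the pineal gland (median 27.2) and between 0.498 and 2.45 in the retina (median 1.25). Over the 6 pairs the difference was 3.69 (SE 0.18, adjusted p = 8.91e-08), and the class II gene RT1-Da lay at 8.29 to 16.0 FPKM against 0.0833 to 0.371 (3.32, SE 0.12, adjusted p = 1.32e-08); RT1 genes are near-identical copies, so reads can be split among them. None of these groups overlapped, as for 2832 of the 10416 tested genes in this direction. Irf7, an interferon response factor, lay at 9.4 to 22.7 FPKM against 0.775 to 1.64 (2.96, SE 0.16, adjusted p = 2.38e-07). Irf1 did not pass (0.16, adjusted p = 0.219; 0.0246 with quantile normalization). Microglia and macrophage markers, 12 of 13 of them higher in the pineal gland (median 1.34), summed to 74.2 to 127 FPKM there and 14.6 to 25 in the retina, and their part in these immune differences was not tested.

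Markers of other cell types that a dissection could include were counted in each library. Blood genes (7 of 7 higher in the pineal gland, median 3.71) summed to 1321 to 2592 FPKM in the pineal gland and 85.5 to 185 in the retina, and Hbb, a globin, was among the 10 most abundant pineal genes (569 to 1090.0 FPKM against 41.8 to 81.9). Endothelium markers (5 of 7 higher in the pineal gland, 1 in the retina, median 1.22) summed to 22.0 to 36.1 and 12.4 to 17.2 FPKM. Fibroblast and meninges markers (11 of 12 higher in the pineal gland, 1 in the retina, median 2.54) summed to 265 to 482 and 40.6 to 55.7 FPKM. The fibrous collagens of this list, Col1a1 (28.9 to 58.9 FPKM against 0.243 to 0.992) and Col3a1 (54.7 to 89.8 FPKM against 0.671 to 1.41), differed by 4.63 (SE 0.11, adjusted p = 1.25e-09) and 5.03 (SE 0.10, adjusted p = 4.54e-10). Choroid plexus markers (4 of 7 higher in the pineal gland, 1 in the retina) summed to 3702 FPKM in the pineal library of ZT15. The sum was 728 to 1222 FPKM in the other pineal libraries and 87.0 to 129.9 in the retina. Most of the sum was Ttr, a carrier of thyroid hormone. Ttr lay between 664 and 3566 FPKM in the pineal gland (median 1096) and differed by 4.22 (SE 0.33, adjusted p = 2.35e-06). Lens markers (11 of 11 higher in the retina, median -3.71) summed to 176 to 1611 FPKM in the retina, highest at ZT19 and next at ZT1, and to 2.18 to 9.67 in the pineal gland. Pigment epithelium and melanocyte markers (7 of 7 in the retina, median -2.80) summed to 27.6 to 47.4 and 0.57 to 0.928 FPKM. Oligodendrocyte markers (3 of 6 higher in the pineal gland, 1 in the retina, median 0.41) summed to 31.8 to 61.7 and 13.7 to 17.7 FPKM. Among them Cldn11 differed most (3.85, adjusted p = 1.07e-09), and Olig1 and Olig2 were at or near 0. Brain neuron markers (2 of 7 higher in the pineal gland, 5 in the retina) summed to 971 to 1181 and 567 to 635 FPKM, with Snap25 and Slc17a7, which photoreceptors also express, on the pineal side. Of the others, Camk2a (0 to 0.253 FPKM against 3.47 to 5.69) and the RNA binding gene Rbfox3, listed under its older symbol Hrnbp3 (0 to 0.43 FPKM against 2.92 to 3.4), were near 0 in the pineal gland.

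**Figure D3:**
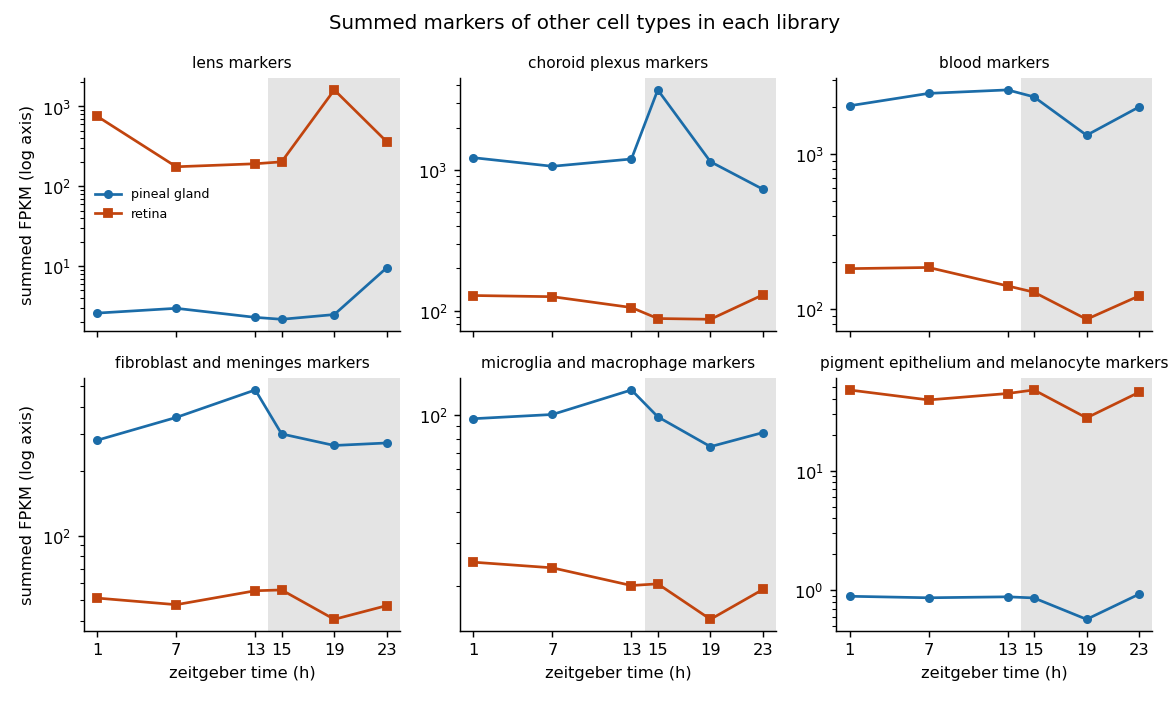
Each panel plots the summed FPKM (log axis) of the markers of 1 other cell type against zeitgeber time, with circles for the 6 pineal libraries and squares for the 6 retina libraries; grey marks darkness. The choroid plexus sum reached 3702 FPKM in the pineal library of ZT15, and the lens sum reached 1611 and 753 FPKM in the retina libraries of ZT19 and ZT1.

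Extracellular matrix genes lay on both sides (11 of 20 higher in the pineal gland, 8 in the retina, against 40.0% and 34.7% of all tested genes). Their median of 0.39 was 0.79 with a filter of 1 FPKM in 6 libraries. Col8a1, a short-chain collagen, lay between 76.6 and 215 FPKM in the pineal gland (median 145) and between 1.44 and 2.73 in the retina (median 2.02). The paired difference was 5.48 (SE 0.22, adjusted p = 2.84e-08). The retina was higher in Col9a1, a collagen of the vitreous (0 to 0.0153 FPKM against 15.1 to 28.8, -4.59, SE 0.12, adjusted p = 1.47e-09), in Col4a1, a basement membrane collagen (8.84 to 17.6 FPKM against 28.5 to 55.5, -1.73, SE 0.10, adjusted p = 3.87e-07), and in Col5a3 (-2.23, SE 0.12, adjusted p = 1.79e-07).

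**Figure D4:**
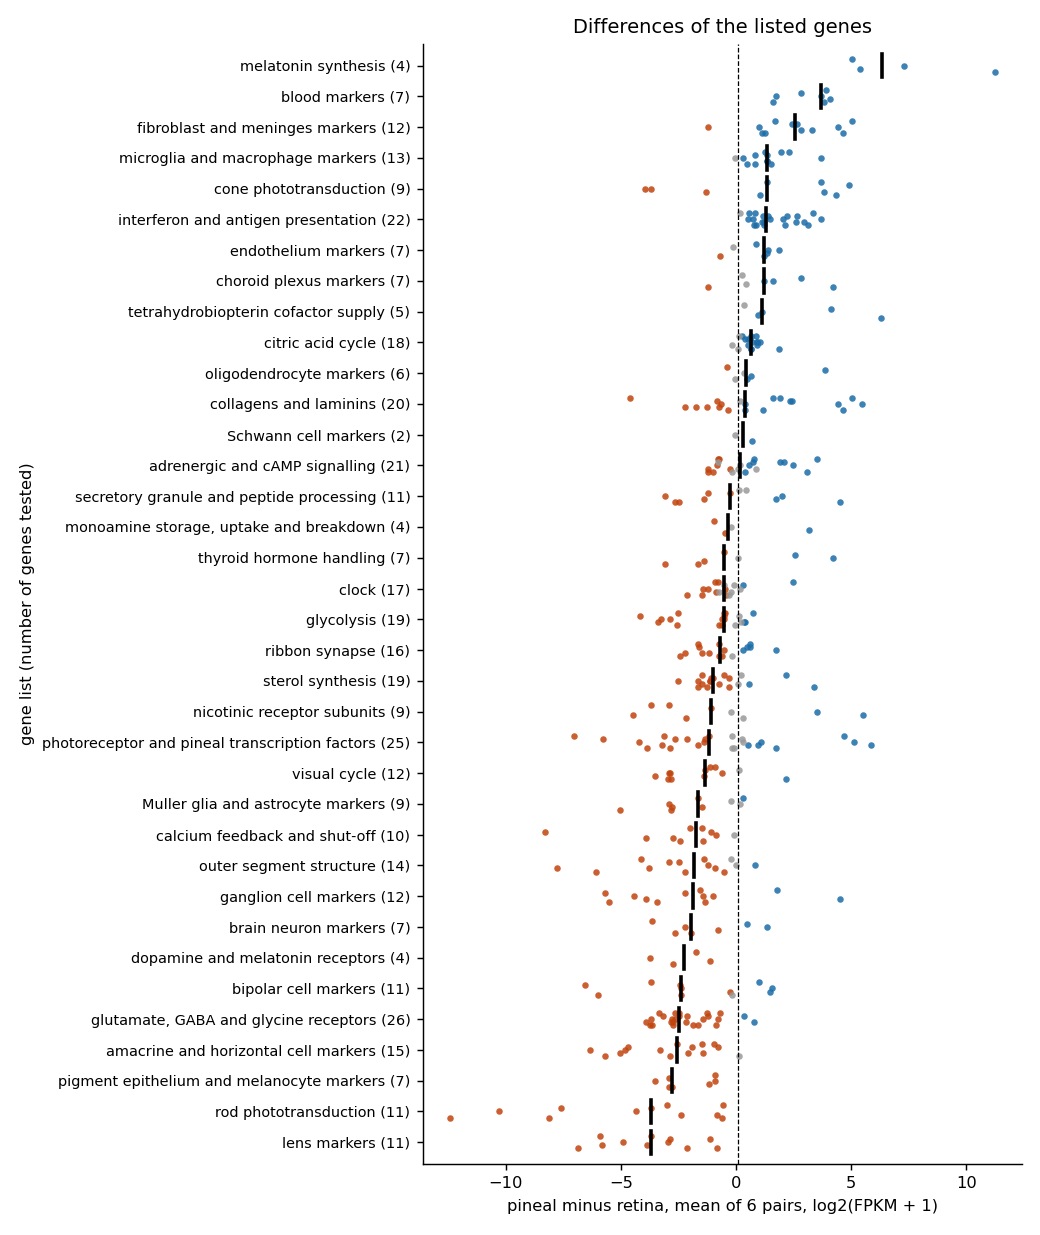
Each line is a gene list with its number of tested genes, each point 1 gene's mean pineal minus retina difference in log2(FPKM + 1), blue where it was higher in the pineal gland, orange where it was higher in the retina and grey where it did not pass; black bars are list medians and the dashed line is the all-gene median of 0.06. Medians run from -3.71 for lens markers to 6.33 for melatonin synthesis, and the cone list holds genes at both ends.

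Several of the 15 largest differences in each direction lay outside the pathways above. Alox15, a lipoxygenase that oxidises arachidonic acid, lay between 359 and 728 FPKM in the pineal gland (median 497) and between 0.484 and 1.17 in the retina (median 1.04), and its difference of 8.03 (SE 0.14, adjusted p = 2.84e-10) was second to that of Tph1 in the pineal direction. Esm1, a proteoglycan first found in endothelium, lay between 107 and 131 FPKM in the pineal gland (median 118) and between 0.0516 and 0.200 in the retina (median 0.122). Across the pairs it differed by 6.72 (SE 0.069, adjusted p = 1.12e-11). Neither gene overlapped between the tissues, as for 2832 of the 10416 tested genes in this direction, and Esm1 was the steadier over the day. Slc39a4, a zinc importer, lay at 75.6 to 107 FPKM against 0.299 to 0.675 (6.12, SE 0.08, adjusted p = 7.37e-11), and Car3, a carbonic anhydrase, at 46.7 to 73.3 FPKM against 0 to 0.226 (5.85, SE 0.11, adjusted p = 3.68e-10). The galectin gene Lgals3 (109.8 to 174 FPKM against 1.23 to 3.54), the serine protease gene Prss53 (64.8 to 128 FPKM against 1.09 to 2.39) and the matrix gene Dpt (30.8 to 46.1 FPKM against 0.0207 to 0.138) differed by 5.39, 5.33 and 5.18 (adjusted p 3.43e-10 to 1.54e-08). In the retinal direction Crygs and Cryba2, crystallins, and Grifin, a lens galectin, stood beside the phototransduction genes: Crygs lay at 0 to 1.06 FPKM against 62.1 to 307 (-6.60, SE 0.32, adjusted p = 9.04e-08), Cryba2 at 0 to 0.387 FPKM against 78.3 to 231 (-6.86, SE 0.22, adjusted p = 6.06e-09), and Grifin at 0 to 0.349 FPKM against 45.7 to 142 (-6.04, SE 0.22, adjusted p = 1.47e-08). They were listed at 0 or below 1.1 FPKM in the pineal libraries, and in the retina their levels were highest at ZT19, the library with the highest lens sum; the part of lens tissue in these differences was not tested. Crygc, another crystallin, ran from 21.3 FPKM at ZT7 to 541 at ZT19 in the retina, and its difference was -5.90 over all pairs and -4.72 without the ZT1 and ZT19 pairs. Pcp2, a Purkinje and bipolar cell gene, lay at 0 to 6.19 FPKM against 116 to 204 (-6.56, SE 0.39, adjusted p = 3.85e-07), and its pineal value of 6.19 FPKM at ZT13 stood apart from the other 5, which were at 0.184 or less.

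A few genes were at 1 FPKM or more throughout 1 tissue and listed at 0 in all 6 libraries of the other; they are named because of that pattern, after their values were seen, and have no test of it. Means over the 6 libraries are given with the SD. On the pineal side there were 7: besides Bsx (74.5 ± 66.8 FPKM, SD, n = 6) they were the defensin gene Defb24 (23.5 ± 17.2), the zinc finger factor Gata5 (4.21 ± 0.87), Wisp2 (3.57 ± 0.93), the insulin gene Ins1 (2.71 ± 1.66), Rnase1l2 (2.32 ± 0.65) and the splicing factor Esrp1 (1.71 ± 0.54). On the retinal side there were 14: Chrna6 (21.4 ± 1.38), C1ql2 (17.4 ± 2.81), Glra3 (7.99 ± 0.96), Six6 (7.95 ± 1.45), the neuropeptide gene Npvf (5.10 ± 2.66), Nhlh2 (3.77 ± 0.18), Sntg1 (3.25 ± 0.25), Hmx1 (2.95 ± 0.44), the serotonin receptor Htr3a (2.54 ± 0.32), Wnt7b (1.92 ± 0.27), Hs3st5 (1.79 ± 0.18), the natriuretic peptide gene Nppa (1.52 ± 0.32), the hedgehog ligand Shh (1.44 ± 0.23) and Drd5 (1.22 ± 0.12).

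Genes that were abundant and even across the tissues were looked for as well. Among the 10 most abundant genes with all 6 paired differences within 1 log2 unit were Rbp3, the sodium pump subunit Atp1b2, the ATP synthase subunit Atp5b, Actb, the complex I gene Ndufa4, Aipl1, Slc17a7 and the proton pump subunit Atp6v0c. Aipl1, a chaperone of the rod and cone phosphodiesterases, lay between 212 and 409 FPKM in the pineal gland (median 349) and between 293 and 495 in the retina (median 373) and did not pass (-0.23, adjusted p = 0.0649). Without the ZT15 pair its adjusted p was 0.0188, and with median ratio scaling 0.00761. Actb, a cytoskeletal gene, lay at 299.5 to 585 FPKM against 255 to 388 and differed by 0.62 (adjusted p = 0.000479; 0.352 with quantile normalization). Among the 10 most abundant pineal genes, the creatine kinase Ckb (1.22), the lipid carriers Apoe (1.72) and Clu (1.98) and the vesicle protein Syp (1.11) were higher in the pineal gland by 1 to 2 log2 units (adjusted p 7.69e-08 to 2.87e-06). Pcp4, a calmodulin regulator among the 10 most abundant retinal genes, lay between 13.1 and 28.6 FPKM in the pineal gland (median 21.6) and between 396 and 511 in the retina (median 449.9). Its difference was -4.38 (SE 0.12, adjusted p = 2.53e-09).

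The difference between the tissues itself changed with the hour for some genes. Its mean at deep night (ZT19 and ZT23) was compared with its mean by day and dusk (ZT7, ZT13 and ZT15), with ZT1 given its own mean, because ZT1 follows the night by 1 hour. Of 10416 genes 452 passed (4.34%): the difference moved towards the pineal gland for 279 (2.68%) and towards the retina for 173 (1.66%). At an unadjusted p below 0.05 there were 1763 genes, and the test rests on 3 residual degrees of freedom. For 261 of the 279 and 131 of the 173 the pineal gland changed more than the retina, with median changes of 1.17 and -0.85 in the pineal gland and -0.09 and 0.10 in the retina. The change was at least 2-fold for 207 and 87 genes. Comparing all dark with all light times instead left 0 genes in limma's test (354 higher and 180 lower at an unadjusted p below 0.05). Without the ZT7, ZT13, ZT19 or ZT23 pair the counts were 139 and 79, 130 and 44, 170 and 61, and 179 and 102, in that order.

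Among the 10 genes that moved most towards the pineal gland were a peptide transporter, the melatonin enzyme and genes tied to cAMP and hedgehog signalling. Slc15a1, the peptide transporter, stood at 0.70, 0.45 and 0.65 log2 units above the retina at ZT7, ZT13 and ZT15 and at 8.08, 7.21 and 6.14 at ZT19, ZT23 and ZT1, while the retina stayed at 0.0606 FPKM or less. The change was 7.05 (SE 0.29, adjusted p = 1.29e-05), and that of Aanat 4.84 (SE 0.34, adjusted p = 0.000144). Fcer1a, a subunit of the IgE receptor, had a difference of -0.10 at ZT15 and 6.10 at ZT19 (change 4.94, SE 0.45, adjusted p = 0.000437). Hhip, a hedgehog binding protein (4.11, SE 0.32, adjusted p = 0.000213), and Ptch1, the hedgehog receptor (3.69, SE 0.20, adjusted p = 4.81e-05), moved together with the kinase genes Dclk3 (4.13, SE 0.29, adjusted p = 0.000144) and Sik1 (3.90, SE 0.20, adjusted p = 3.95e-05). Ptch1 lay within -0.41 to 0.13 of equal at ZT1, ZT7, ZT13 and ZT15 and at 3.63 and 3.27 at ZT19 and ZT23, with 12.3 to 14.7 FPKM in the retina at all times. Crem, a cAMP responsive repressor, changed by 3.94 (SE 0.30, adjusted p = 0.000204), Atp7b, a copper pump, by 4.40 (SE 0.38, adjusted p = 0.000351), and Irs2, an insulin signalling adaptor, by 4.11 (SE 0.29, adjusted p = 0.000144). With ZT1 counted as night, Dclk3, Irs2, Ptch1 and Sik1 did not pass (adjusted p 0.0574 to 0.319), and their differences at ZT1 were 2.83, -1.40, 0.13 and -0.72.

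Of the 10 genes that moved most towards the retina, 8 were lower in the pineal gland at ZT19 and ZT23 than at ZT7, ZT13 and ZT15 by more than the retina changed, and in Ctnnal1 and Fabp12 the retina changed more. Hs3st2, a heparan sulfate sulfotransferase, stood at 3.81, 4.17 and 4.16 by day and dusk and at 1.55 and 0.091 at deep night (-3.22, SE 0.38, adjusted p = 0.00177), with the retina below 1 FPKM throughout. St8sia3, a sialyltransferase (-2.54, SE 0.25, adjusted p = 0.000746), Ccl9, a chemokine (-2.31, SE 0.30, adjusted p = 0.00318), and Ptpn21, a tyrosine phosphatase (-2.22, SE 0.16, adjusted p = 0.000144), were likewise lower in the pineal gland at ZT19 and ZT23 than at ZT7, ZT13 and ZT15. Pdc, phosducin, which binds the transducin beta and gamma subunits, stood at -1.26 at ZT13 and -4.66 at ZT23 (-2.48, SE 0.38, adjusted p = 0.00779) while the retina stayed between 929 and 1098 FPKM. Ctnnal1, a catenin-like gene, changed by -2.11 (SE 0.20, adjusted p = 0.000621), and here mostly the retina moved: from 10.9 FPKM at ZT13 up to 47.8 at ZT23, against 5.76 to 8.61 in the pineal gland. Fabp12, a fatty acid binding protein (-2.0, SE 0.18, adjusted p = 0.000437), and Mlf1 (-2.10, SE 0.27, adjusted p = 0.00333) moved in both tissues in opposite directions: Fabp12 from 48.9 FPKM at ZT7 to 23.7 at ZT19 in the pineal gland and from 15.4 to 34.5 in the retina. Adcy1 (-1.98, SE 0.32, adjusted p = 0.00959) and the uncharacterised LOC690918 (-2.02, SE 0.26, adjusted p = 0.00329) completed the group. Without the ZT7 pair Pdc and Adcy1 did not pass (adjusted p 0.0513 and 0.062), and with ZT1 counted as night Ccl9, Ptpn21 and Adcy1 did not (0.122 to 0.203).

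**Figure D5:**
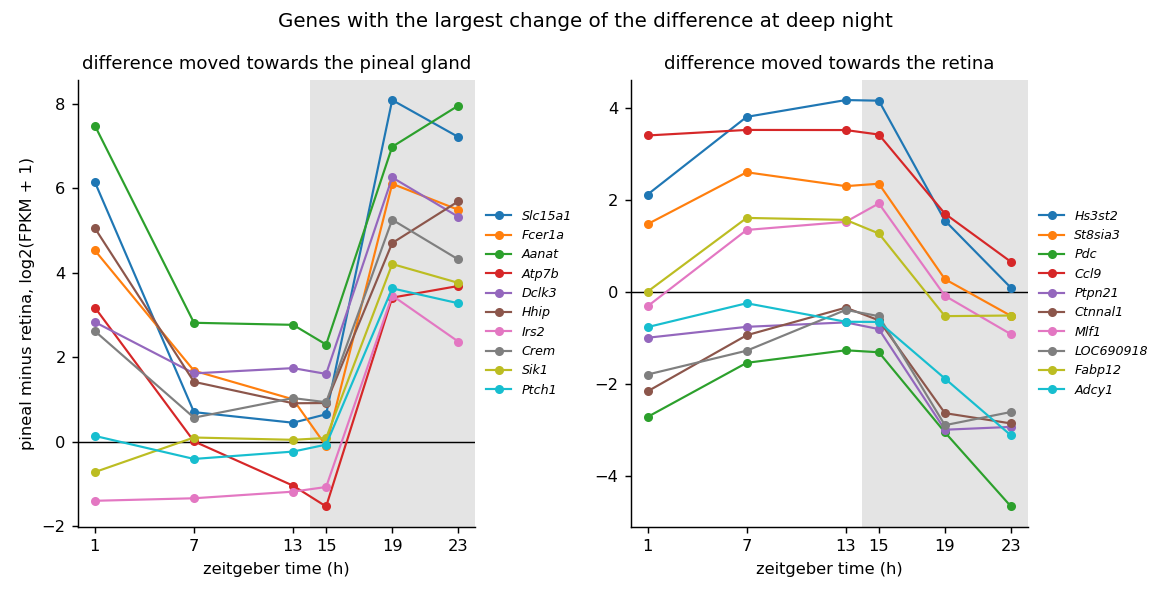
Lines show the pineal minus retina difference in log2(FPKM + 1) at each zeitgeber time for the 10 genes whose difference moved most towards the pineal gland at deep night (left) and the 10 that moved most towards the retina (right); grey marks darkness. The left set is low from ZT7 to ZT15 and high at ZT19 and ZT23, and Slc15a1, Aanat, Hhip, Fcer1a and Atp7b are also high at ZT1.

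Of the 414 tested members of the lists, 34 (8.21%) changed at deep night, 15 towards the pineal gland and 19 towards the retina, against 4.34% of all tested genes. In adrenergic and cAMP signalling, the phosphodiesterases Pde4b (2.42, SE 0.19, adjusted p = 0.000213) and Pde4d (1.80, SE 0.27, adjusted p = 0.00716), which break down cAMP, moved towards the pineal gland with Crem, and so did the clock gene Per1 (1.63, SE 0.24, adjusted p = 0.00688). With ZT1 counted as night these 3 did not pass (adjusted p 0.239 to 0.358). The dopamine receptor Drd4 (2.44, SE 0.37, adjusted p = 0.00716), the glutamate transporter Slc17a6 (2.19, SE 0.24, adjusted p = 0.00134) and the granule protein Scg2 (1.50, SE 0.22, adjusted p = 0.00619) moved the same way. Drd4 stood at 2.32, 1.4 and 0.879 FPKM in the pineal gland at ZT7, ZT13 and ZT15 and at 27.5 and 55.8 at ZT19 and ZT23. In the retina it stood at 18.5, 18.3, 19.3, 65.2 and 52.0 FPKM at the same hours, so both tissues were higher at deep night. All photoreceptor genes that passed moved towards the retina: 1 of 11 rod, 2 of 9 cone, 1 of 10 feedback, 2 of 14 outer segment and 1 of 16 ribbon synapse genes, against 1.66% of all tested genes. Besides Pdc they included Opn1sw (-1.68, SE 0.32, adjusted p = 0.0199), Cnga1 (-1.27, SE 0.22, adjusted p = 0.013) and the calcium channel subunit Cacnb2 (-0.98, SE 0.15, adjusted p = 0.00865). The other cone gene was Slc24a2 (-0.82, adjusted p = 0.0427), which did not pass without the ZT7, ZT13 or ZT15 pair (0.0783 to 0.133). Opn1sw did not pass without the ZT7, ZT13, ZT19 or ZT23 pair (adjusted p 0.0512 to 0.142), Cnga1 without ZT13 or ZT19 (0.0506 and 0.0821), and Cacnb2 without ZT19 (0.0561). Of the lineage factors Bsx, whose retina values were all listed at 0 so that only the pineal level changed, moved towards the pineal gland (2.02, SE 0.32, adjusted p = 0.00923, lost without ZT7 or ZT13 at 0.069 and 0.0696) and Neurod1 towards the retina (-0.95, SE 0.16, adjusted p = 0.0141, lost without ZT13, ZT19 or ZT23 at 0.0625 to 0.0716). Mip, a lens water channel, also moved towards the retina (-1.59, SE 0.23, adjusted p = 0.00653); the lens sum of the retina libraries was highest at ZT19, and its part in this change was not tested.

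For 20 genes the order of the tissues turned over the day: the pineal gland was at least 1 log2 unit above the retina at some time and at least 1 log2 unit below it at another. No gene turned by 2 log2 units each way, and there is no test of this pattern. Syt4, a synaptotagmin of vesicle release, was lower in the pineal gland at ZT7, ZT13 and ZT15 (-1.56, -1.34 and -1.31) and higher at ZT19, ZT23 and ZT1 (1.48, 1.73 and 0.84). Its retina level stayed between 30.3 and 35.3 FPKM. Pde8b, a phosphodiesterase, ran from -1.33 at ZT13 to 1.36 at ZT23, Irs2 from -1.40 at ZT1 to 3.46 at ZT19, Atp7b from -1.54 at ZT15 to 3.68 at ZT23, and Trank1 from -2.16 at ZT15 to 1.35 at ZT23. Dusp1, a phosphatase that switches off MAP kinases, ran from -1.99 at ZT15 to 1.68 at ZT19, and Dio2, the deiodinase that activates thyroid hormone, stood out at ZT19 alone (3.77, against -1.51 to 0.29 at the other times). Fos, an immediate early gene, turned through the retina: it lay at 3.78 and 4.14 FPKM there at ZT7 and ZT13 and at 51.0 and 47.0 at ZT15 and ZT19, against 10.9 to 17.2 in the pineal gland. Tmem27 was high in the pineal gland at ZT15 (4.11 FPKM, difference 1.61), the library with the highest choroid plexus sum, whose part was not tested, and Mir344a-2 was listed at 0 in 8 of the 12 libraries. The other 10 genes, in order of their smaller side, were Dos, Sostdc1, nod3l, Nptxr, Pcdhgc5, St8sia5, Fhdc1, Cpt1a, Igf1r and Tmem72. Of these, Sostdc1, Pcdhgc5 and Tmem72 were highest in the pineal gland relative to the retina at ZT15 too. A pseudocount of 0.1 in place of 1 gave 69 such genes, and a pseudocount of 5 gave 3.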

How the data were processed

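Poly(A)-selected RNA from 6 pineal gland and 6 retina pools was sequenced as paired-end reads, per the labels' protocols; the extraction and library steps were the same for both tissues. The deposited values are FPKM per transcript; TopHat 1.3.1, Cufflinks 1.2.0 and the rn4 build are named, per the submitters' processing notes. Read counts are not used here, so depth is known only through the FPKM worth of 1 fragment, and intervals on single values were not computed. No strand setting is stated, so genes that overlap may share reads.

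FPKM were summed per gene ID and taken as log2(FPKM + 1), which understates differences of low genes. Genes with at least 1 FPKM in at least 2 of 12 libraries were tested in limma 3.58.1 (R 4.3.3) with time of day as a block, moderated variances with an intensity trend and Benjamini-Hochberg adjustment at 0.05. Same-time libraries of the tissues deviated together weakly (correlations across genes 0.05 to 0.27); the block rests on the labelled times. The change at deep night was tested on the 6 paired differences, with 3 residual degrees of freedom. Both tests were checked on simulated data with planted changes of 1 and of 2 log2 units. The paired test found all of them. The deep night test found most of the planted changes of 2 log2 units and none of 1 log2 unit. These results hold for that setting, with 200 of 10416 genes changed. In the measured libraries the deep night test called smaller changes, such as Slc24a2 (-0.82), Neurod1 (-0.95) and Cacnb2 (-0.98). The share of real changes that either test finds was not tested. Without sample replicates at any time, the error is the spread over times of day.

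The pairing, the gene lists and the tests were chosen with earlier results of these data known. Genes are named as list members, as the 15 largest differences in each direction among called genes with the same sign in 6 pairs, the 10 largest called deep night changes in each direction, the 10 largest turns of order, the 10 most abundant even genes and the 10 most abundant of each tissue; others are said to be chosen after their values were seen, and some genes that meet these rules are not reported here. Pineal minus retina differences of genes listed at 0 in all libraries of a tissue are not given. Alternatives were 2 other pseudocounts, 2 other filters, quantile normalization, median ratio scaling, 1 transcript per gene, no block, other phases and leaving out each pair. Promoters come from RefSeq (GRCr8). Tables were made with Python 3.11.15, pandas 2.3.3 and numpy 2.4.6.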

Additional observations from a re-analysis of the deposited data

Results flagged for a closer look

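Over the 6 times of day, 1 pair stood apart from the others for 9 of the 220 named genes with a value above 0 in both tissues, by a gap to the nearest pair beyond Dixon's 95% critical value for 6 samples; chance flags about 1 in 20, which is 11 of these genes. At ZT7 this was Slc24a1 (-2.76). At ZT13 these were Gad1 (-5.22) and Pcp2 (-4.06). At ZT15 these were Pts (1.88), Six3 (-4.08) and Tmem27 (1.61). At ZT19 these were Col9a1 (-3.98), Dio2 (3.77) and Rgs9 (-0.18). The values are pineal minus retina differences in log2(FPKM + 1) at that time.

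The difference between the tissues changed between day with dusk and deep night, by a test of the change itself in limma with adjustment over all 10416 genes, for these named genes. Towards the pineal gland moved Slc15a1 (7.05), Fcer1a (4.94), Aanat (4.84), Atp7b (4.40), Dclk3 (4.13), Hhip (4.11), Irs2 (4.11), Crem (3.94), Sik1 (3.90), Ptch1 (3.69), Bsx (2.02), Drd1a (1.04), Drd4 (2.44), Dusp1 (2.86), Pde4b (2.42), Pde4d (1.80), Pde8b (2.40), Per1 (1.63), Scg2 (1.50), Slc17a6 (2.19), Syt4 (3.01), Trank1 (2.80) and Vgf (1.33). Towards the retina moved Hs3st2 (-3.22), St8sia3 (-2.54), Pdc (-2.48), Ccl9 (-2.31), Ptpn21 (-2.22), Ctnnal1 (-2.11), Mlf1 (-2.10), LOC690918 (-2.02), Fabp12 (-2.0), Adcy1 (-1.98), Cacnb2 (-0.98), Cnga1 (-1.27), Isl2 (-1.31), Mip (-1.59), Neurod1 (-0.95), Opn1sw (-1.68) and Slc24a2 (-0.82). With all dark against all light times none of them passed (adjusted p 0.905 to 0.984). Some calls were also lost without 1 pair. Without ZT7 or ZT13 these included Drd1a (adjusted p 0.135 and 0.159), Vgf (0.105 and 0.145) and Isl2 (0.0627 and 0.0917). Slc24a2 was lost without ZT7, ZT13 or ZT15 (0.0783 to 0.133). With median ratio scaling Drd1a (0.0548), Vgf (0.0609) and Slc24a2 (0.0597) did not pass either.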

How the results depend on the processing

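The share of paired calls on the pineal side was 49.2% to 55.4% over the settings run, with 3873 against 3992 calls under median ratio scaling. Leaving out 1 pair gave 3914 to 4197 genes higher in the pineal gland and 3379 to 3524 higher in the retina, and without the block on time of day, that is without pairing, 4044 and 3515 passed. Counts of at least 4-fold differences followed the pseudocount: 712 and 1026 genes at 0.1, and 145 and 166 at 5; leaving out 1 pair gave 365 to 378 and 551 to 577. Turned orders numbered 69 and 3 at these pseudocounts, 0 at 2 log2 units each way, and 15 to 20 without 1 pair. The deep night counts, towards the pineal gland and the retina, moved as well. They were 0 and 0 for dark against light, 82 and 35 without a filter, and 165 and 96 at a pseudocount of 0.1. They were 150 and 77 with ZT1 counted as night, and 352 and 273 without the block. Without the ZT1 and ZT19 pairs, which leaves only ZT23 at deep night, they were 172 and 61. Without the ZT7, ZT13 or ZT15 pair they were 130 to 267 and 44 to 123. Leaving out the ZT1 pair alone returned the main 279 and 173. That setting cannot test these counts, because ZT1 has its own mean. The cause of these shifts was not tested, and settings that drop pairs have fewer samples. With quantile normalization the differences of Atp1b2 (-0.11), Atp5b (-0.31), Cacna1f (-0.11), Ndufa4 (-0.17) and Slc17a7 (-0.069) turned negative. The median of adrenergic and cAMP signalling genes turned to -0.17 with no filter on low values. The median of Schwann cell genes turned to -0.071 with a filter of 1 FPKM in 6 libraries. Depth limits genes near the worth of 1 fragment, an estimated 0.0216 to 0.0527 FPKM on a 1 kb transcript. At that level a few fragments set the value.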

Other observations

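Gene families picked by symbol after the data were seen gave a wider view of the energy genes and the ion channels. Genes whose symbols begin with Nduf, most of them complex I subunits, were higher in the pineal gland for 28 of 36 and higher in the retina for 0 (median difference 0.61 log2 units, against 0.06 over all tested genes). The pineal gland was also higher for 14 of 16 genes beginning with Atp5, 10 of 14 of cytochrome c oxidase, 14 of 18 of the vacuolar ATPase group and 40 of 66 of the mitochondrial ribosome (medians 0.75, 1.0, 0.56 and 0.38). With quantile normalization these 5 medians stayed above 0, at 0.40, 0.59, 0.65, 0.25 and 0.34. Single members stood apart: Cox6a2, an oxidase subunit known from muscle, lay at 8.55 to 14.0 FPKM against 0 to 0.416 (difference 3.46, SE 0.10, adjusted p = 3.68e-09), Cox4i2 at 1.05 to 1.42 FPKM against 11 to 22.6 (-2.86, SE 0.11, adjusted p = 2.43e-08), and Atp6v1g2, a neuronal pump subunit, at 1.0 to 2.56 FPKM against 35.7 to 53.3 (-3.92, SE 0.11, adjusted p = 2.61e-09). Potassium channel genes lay the other way, 37 of 55 higher in the retina and 13 in the pineal gland (median -1.17; -0.28 with no filter on low values). Kcnv2, a channel subunit of photoreceptors, lay at 0.214 to 2.43 FPKM against 43.7 to 126 (-5.46, SE 0.17, adjusted p = 5.07e-09), and Kcnj10, the potassium channel of Muller glia, at 0.277 to 0.805 FPKM against 8.55 to 10.0 (-2.80, SE 0.10, adjusted p = 9.22e-09). On the pineal side were Kcnd2, at 16.6 to 44.4 FPKM against 1.52 to 2.27 (3.41, SE 0.18, adjusted p = 1.54e-07), and Kcnh6, at 93.6 to 133 FPKM against 9.04 to 12.3 (3.30, SE 0.072, adjusted p = 7.4e-10). Promoters of the genes that moved towards the pineal gland at deep night held TGACGTCA in 6.87% of 233 matched genes, against 3.1% of the 8494 tested and matched, CACGTG in 9.87% against 8.29%, TGACG in 31.3% against 28.5% and TAATCC in 3% against 4.98%; no test was made of these shares.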
